A study of Mus musculus with 16 samples.

Results

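The genes described here make, sense, take up, export and store cholesterol in the liver. The set was defined by 36 gene symbols, and where a gene had several probe sets the brightest on average across the 16 samples stood for it. Of the 36 genes, 32 were found in the platform annotation, out of 19505 genes measured. Acat2, Tm7sf2, Soat1 and Soat2 are not analysed here. The 32 genes were 17 enzymes of synthesis, 4 regulators of sterol sensing, 3 genes of lipoprotein uptake, 5 of efflux and high-density lipoprotein (HDL) maturation, and 3 of cholesteryl ester turnover, sterol transfer and oxysterol formation.

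RNA came from liver biopsies of C57BL/6 mice. The labels name 8 control samples and 8 samples of a mouse model of nonalcoholic steatohepatitis (NASH), a fatty liver with inflammation. No treated group was among the samples. The way the model was induced, and the age and sex of the mice, are not given in the sources used here. Nothing states that each sample came from its own animal, so the tests measure the spread between these samples, which are named by the numbers in their labels. Values are log2 intensities, differences are NASH model minus control, and errors of differences are standard errors (SE) of the limma fit, with 8 samples per group. A gene was called higher or lower where its limma p, adjusted by the Benjamini-Hochberg method across the 19505 genes, was under 0.05.

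Liver cells make cholesterol from acetyl-CoA through mevalonate, farnesyl diphosphate, squalene and a series of sterol rings. When membrane sterol is low, the escort protein SCAP carries the transcription factor SREBP2 (encoded by Srebf2) to the Golgi, where it is cut and released to switch on most enzymes of the route. When sterol is plentiful, INSIG proteins hold SCAP in the endoplasmic reticulum, while oxysterols activate the liver X receptors, which raise the sterol exporters of the ABC family. In the liver cholesterol also enters from lipoproteins and leaves into bile, into HDL or as bile acids.

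Of the 32 genes, 4 were higher in the NASH model livers and 9 were lower, and 19 were not called. These shares were 12.5% and 28.1%, against 13.2% of all genes called higher and 13.4% called lower. Counted in either direction, 40.6% of the members were called, against 26.6% of all genes. The median difference of the members was -0.13, and that of all genes was -0.04. For 4 members, or 12.5%, the ranges of the groups did not overlap, against 9.54% of all genes. The scale of the arrays bears on the small falls. With arrays centred on their spike-in control probes, which moved the median of all genes to 0.10, 3 members stayed called lower (Insig2, Scap and Scarb1), and the share of higher calls among all called genes was 78.9% in place of 49.6%. With arrays centred on their medians it was 39.2%, the median of all genes was -0.12, and 11 members were lower.

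**Figure D1:**
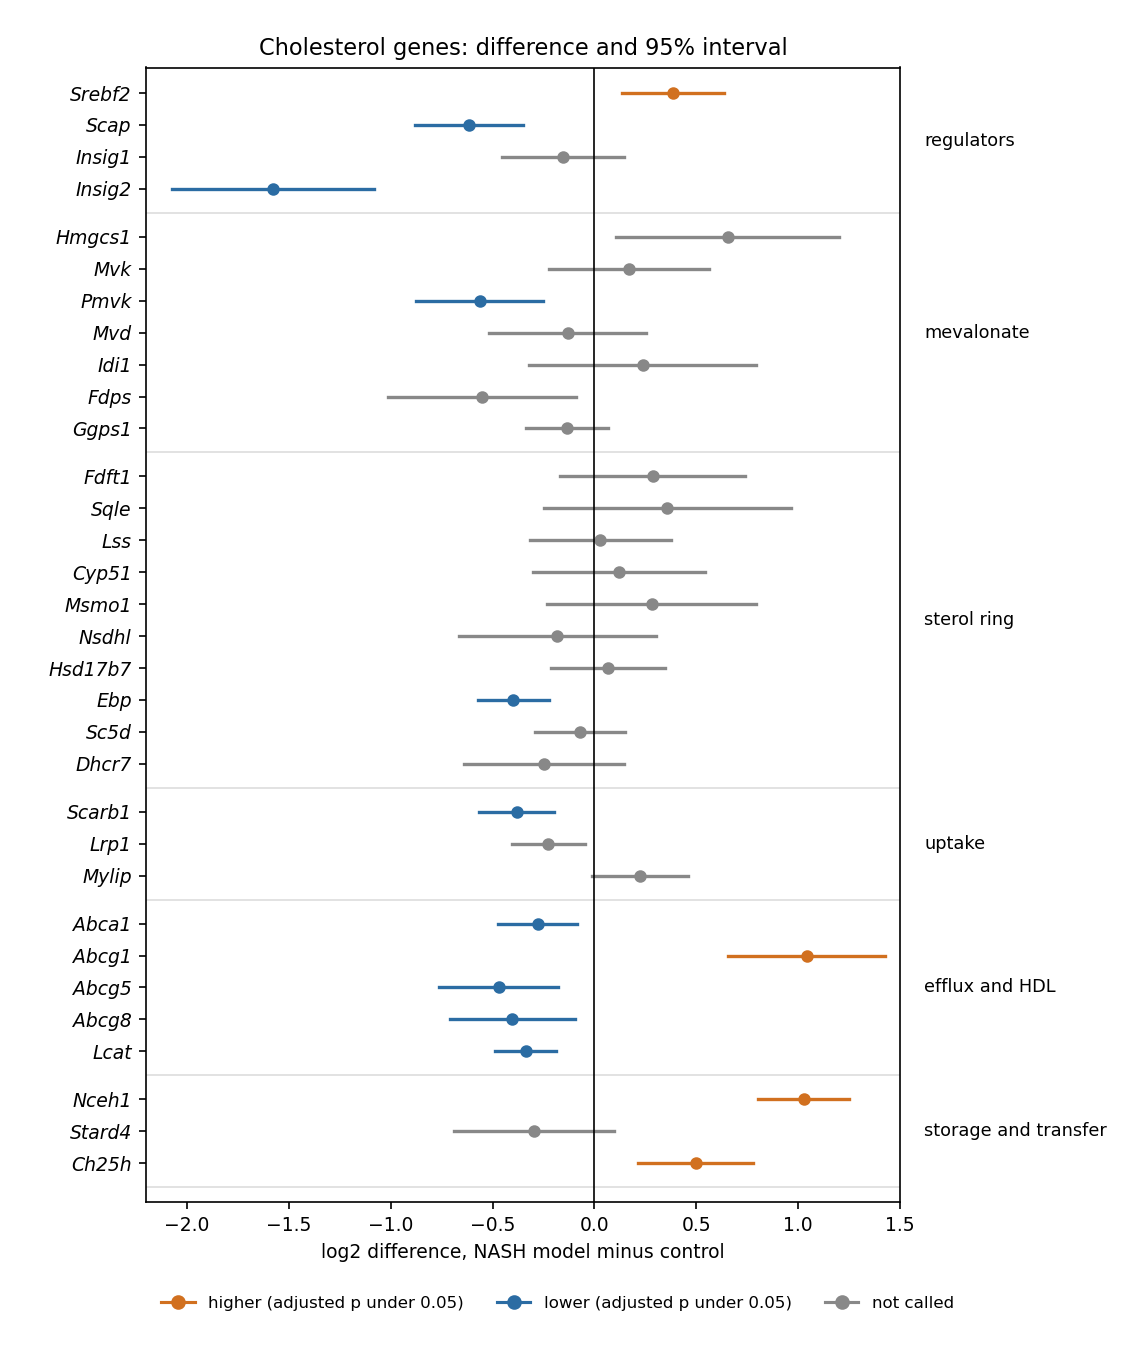
Difference between NASH model and control (log2, horizontal axis) for the 32 genes, ordered by role. Points are limma estimates and bars 95% intervals, n = 8 per group; colours mark genes called higher, lower or neither. Insig2 lies farthest to the left at -1.58, Abcg1 and Nceh1 farthest to the right at 1.04 and 1.03, and most synthesis enzymes have wide intervals that span 0.

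The regulators of sterol sensing changed in opposite directions. Insig2, which retains SCAP in the endoplasmic reticulum, fell most of all members. Its control values ran from 7.17 to 8.98 with a median of 8.44, and its NASH model values from 5.99 to 7.33 with a median of 6.77. The groups overlapped only because control 4, at 7.17, lay below NASH model 2, at 7.33. The difference was -1.58 ± 0.24, a 2.99-fold fall (adjusted p = 3.8e-05). Scap, the escort of SREBP2, ran from 8.12 to 8.61 (median 8.41) in the controls and from 7.19 to 8.14 (median 7.79) in the model. It fell by 0.62 ± 0.13 (adjusted p = 9.5e-04), with NASH model 7 the lowest sample and the groups meeting only between 8.12 and 8.14. Srebf2 itself ran from 7.55 to 8.08 (median 7.76) in the controls and from 7.62 to 8.54 (median 8.17) in the model. It rose by 0.39 ± 0.12 (adjusted p = 0.021), with NASH model 1a and 1b the highest samples, at 8.54 and 8.44. Without these samples its difference was 0.28 (adjusted p = 0.0998), and with arrays centred on their medians it was also 0.28 (adjusted p = 0.082). Insig1, the INSIG gene that SREBP2 itself induces, had a mean of 8.84 ± 0.31 (SD, n = 8) in the controls and 8.68 ± 0.28 in the model, and was not called (-0.15 ± 0.14, adjusted p = 0.48). Its 95% interval ran from -0.45 to 0.14.

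Promoter sequences from RefSeq (GRCm38.p6) are shown for Insig2 because it moved most and has 3 annotated windows, of which the 2 farthest upstream are printed. Each window spans 250 bases before a transcript start and 50 after it, 5′ to 3′. Capitals mark matches, on either strand, to CCAAT (the box bound by NF-Y, a partner of SREBP2), TCACNCCAC (a form of the sterol regulatory element) and CACGTG (the E-box). The upstream window, chr1:121332540-121332839 on the minus strand, holds 3 CCAAT matches. The next window, chr1:121327975-121328274, starts 4565 bases away and holds no match to any of the 3 motifs. The probe set gives 1 value for the gene and does not separate transcripts from these starts.
Insig2, upstream start: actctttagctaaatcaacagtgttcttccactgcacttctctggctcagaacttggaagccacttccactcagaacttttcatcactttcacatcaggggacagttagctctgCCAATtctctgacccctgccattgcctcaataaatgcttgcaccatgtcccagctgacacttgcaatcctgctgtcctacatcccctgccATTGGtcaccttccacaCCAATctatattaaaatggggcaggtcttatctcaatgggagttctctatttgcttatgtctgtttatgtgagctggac
Insig2, downstream start: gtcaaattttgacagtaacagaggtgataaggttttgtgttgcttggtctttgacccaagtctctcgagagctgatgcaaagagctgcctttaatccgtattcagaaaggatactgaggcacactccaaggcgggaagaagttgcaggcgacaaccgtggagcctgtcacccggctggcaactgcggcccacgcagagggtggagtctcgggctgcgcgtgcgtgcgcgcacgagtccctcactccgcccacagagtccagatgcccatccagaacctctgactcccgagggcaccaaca

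**Figure D2:**
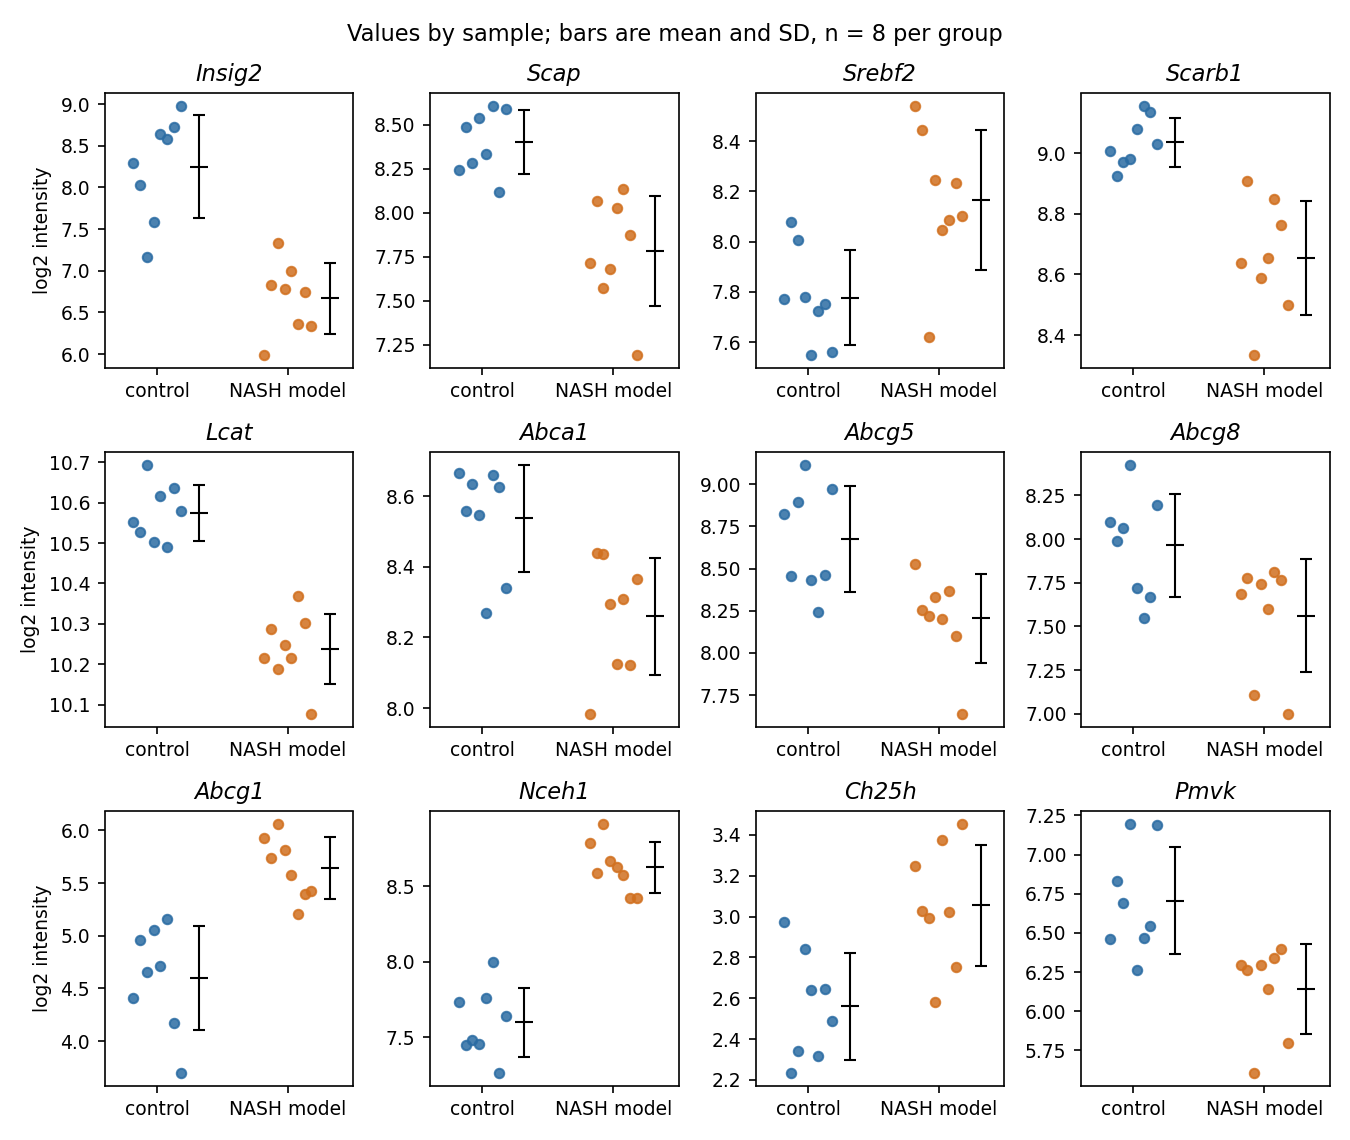
Log2 intensity by sample (vertical axes, each on its own scale) for 12 of the 13 called genes, in controls and NASH model; Ebp is given in the text. Points are samples, and bars are mean and SD, n = 8 per group. The groups are apart for Scarb1, Lcat, Abcg1 and Nceh1, and overlap for the others.

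Of the 17 measured synthesis enzymes, 0 were called higher and 2 lower in the limma fit, and their median difference was 0.03. The share called lower, 11.8%, was near the 13.4% of all genes, and 13.2% of all genes were higher. At an unadjusted p under 0.05, Hmgcs1 was also higher (limma p = 0.022, exact permutation p = 0.048) and Fdps lower (limma p = 0.021, exact permutation p = 0.043). Among the mevalonate enzymes, Pmvk, the kinase that makes diphosphomevalonate, ran from 6.27 to 7.20 (median 6.62) in the controls and from 5.60 to 6.40 (median 6.28) in the model. It fell by 0.56 ± 0.15 (adjusted p = 0.0075). NASH model 2 and 7 were its lowest samples, at 5.60 and 5.80. Hmgcs1, which condenses acetyl-CoA units into HMG-CoA, ran from 8.04 to 9.25 (median 8.57) in the controls and from 8.18 to 10.10 (median 9.58) in the model, a difference of 0.65 ± 0.26 that was not called (adjusted p = 0.073). Fdps, the farnesyl diphosphate synthase, ran from 6.66 to 7.93 (median 7.37) in the controls and from 5.93 to 7.29 (median 7.03) in the model, and was not called either (-0.55 ± 0.22, adjusted p = 0.071). The 95% intervals were 0.11 to 1.20 for Hmgcs1 and -1.01 to -0.09 for Fdps. Leaving out control 6, control 9 or NASH model 1b brought Fdps to adjusted p values of 0.040, 0.036 and 0.046. Leaving out control 3, NASH model 2 or NASH model 7 brought Hmgcs1 to 0.049, 0.017 and 0.034. Other omissions moved both genes away from a call. Without NASH model 1a and 1b Hmgcs1 differed by 0.43 (adjusted p = 0.27), and without 1b alone its adjusted p was 0.145. Without NASH model 2 or NASH model 7 the adjusted p of Fdps was 0.147 and 0.145.

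The other mevalonate enzymes were not called. The isomerase Idi1 differed by 0.24 ± 0.27, the mevalonate kinase Mvk by 0.17 ± 0.19, the decarboxylase Mvd by -0.13 ± 0.18 and Ggps1, which diverts farnesyl diphosphate to geranylgeranyl diphosphate, by -0.14 ± 0.10. Of the squalene and sterol ring enzymes, only Ebp, the sterol isomerase, was called. It ran from 8.41 to 8.74 (median 8.58) in the controls and from 7.96 to 8.44 (median 8.18) in the model, and fell by 0.40 ± 0.08 (adjusted p = 0.0012), with a narrow overlap of the groups. The rest lay between -0.25 ± 0.19 for Dhcr7, which reduces 7-dehydrocholesterol in the last step to cholesterol, and 0.36 ± 0.29 for the squalene epoxidase Sqle. Between them were the squalene synthase Fdft1 (0.29 ± 0.22), the sterol demethylation enzymes Msmo1 (0.28 ± 0.25), Hsd17b7 (0.07 ± 0.13) and Nsdhl (-0.18 ± 0.23), the lanosterol demethylase Cyp51 (0.12 ± 0.20), the lanosterol synthase Lss (0.03 ± 0.17) and the desaturase Sc5d (-0.07 ± 0.11). The intervals of several of these leave room for sizeable differences, for example -0.25 to 0.96 for Sqle.

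The enzymes varied widely within each group, and mostly together. Their median SD was 0.45 in the controls, against 0.28 over all genes, and 0.37 in the model, against 0.24. The mean deviation of the 17 enzymes from their control means gives each sample's synthesis level, as a description. In the controls it was 0.40, 0.39 and 0.35 in samples 3, 4 and 5, and between -0.45 and -0.10 in the other 5. In control 5 all 17 enzymes lay above their control mean, and in control 6 only 1 did. In the NASH model it was -0.57 in sample 2 and -0.52 in sample 7, and between -0.08 and 0.28 in the other 6. In NASH model 7 all 17 enzymes lay below their control mean, and in NASH model 2 only 1 lay above. The group means were nearly equal, with a difference of -0.0049.

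**Figure D3:**
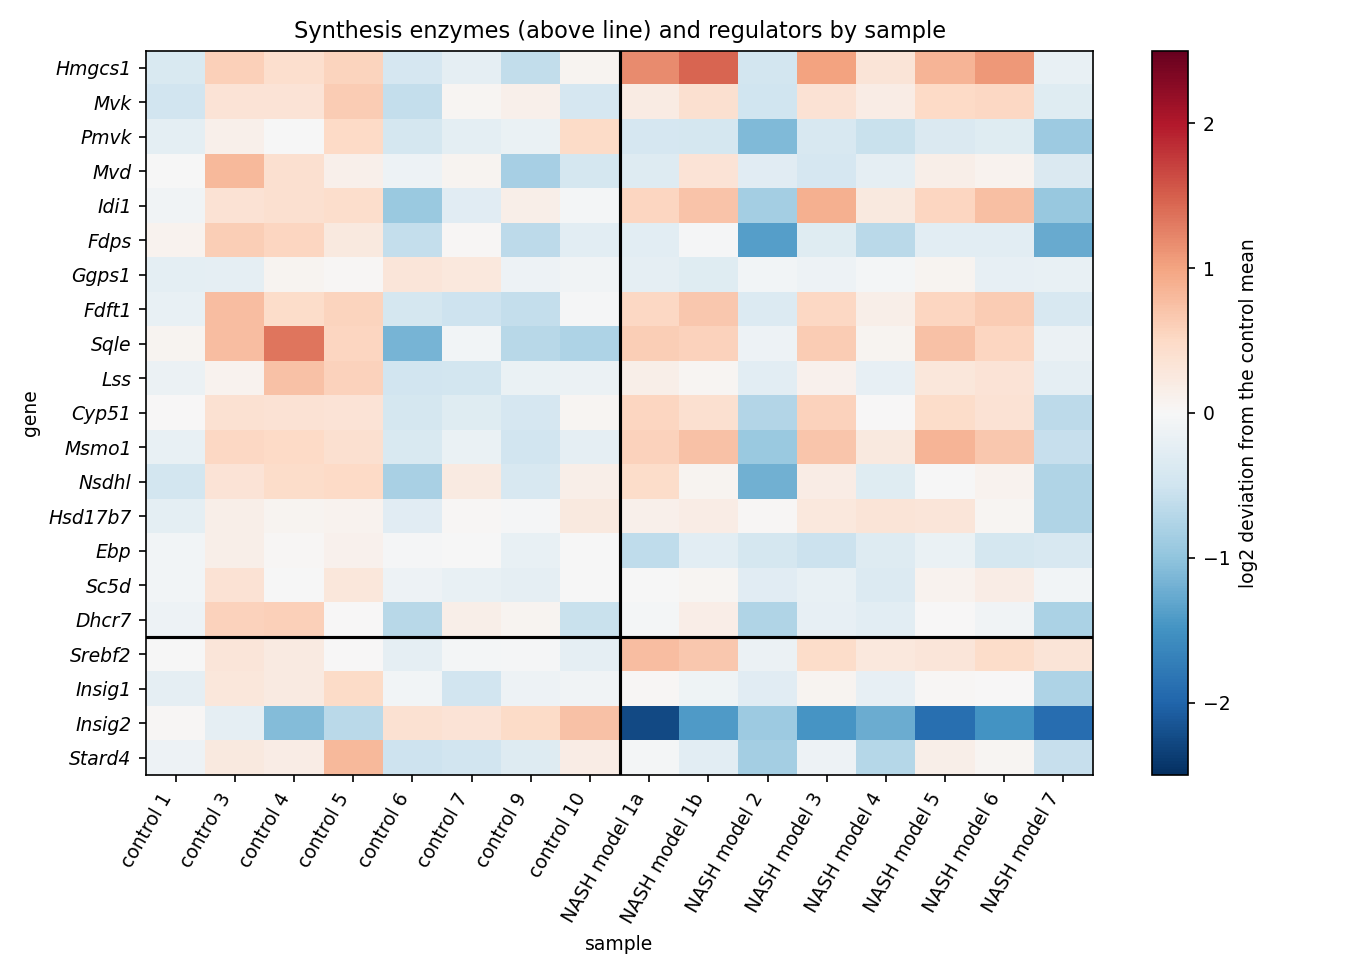
Log2 deviation of each gene (rows) from its control mean in each sample (columns), for the 17 synthesis enzymes above the line and Srebf2, Insig1, Insig2 and Stard4 below it; red is above the control mean and blue below. Controls 3, 4 and 5 are mostly red, NASH model 2 and 7 mostly blue, and Insig2 is blue in all 8 NASH model samples.

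NASH model 2 and 7 also stood apart in 2 genes outside cholesterol handling, neither of them on the gene lists. Elovl3, a fatty acid elongase, was at 2.07 and 2.19 in them against 4.42 to 5.60 in the other 6, and Thrsp, a regulator of lipogenesis, at 3.13 and 3.64 against 5.77 to 6.30. All 8 model samples lay below the controls, which ran from 8.63 to 10.97 for Elovl3 and from 8.19 to 10.02 for Thrsp. Elovl3 in NASH model 2 and 7 lay below the background level of 2.89, the 95th percentile of olfactory and vomeronasal receptor genes. In summed marker levels of cells, these samples were at extremes of the model group in different lists. NASH model 7 had the highest level of the model group for recruited macrophages (13.20, lowest sample 12.59), stellate cells (12.07, lowest 11.44) and cholangiocytes (9.39, lowest 6.88), and the lowest for Kupffer cells (10.19, highest 11.07). NASH model 2 had the highest level for lymphocytes (7.09, lowest 6.67), neutrophils (7.26, lowest 6.81) and hepatocytes (15.39, lowest 15.29). In these lists NASH model 7 lay between the extremes, at 6.92, 7.05 and 15.35. NASH model 2 lay between them for recruited macrophages (13.06), stellate cells (11.86), cholangiocytes (8.78) and Kupffer cells (10.73). For endothelial cells both did, at 10.11 and 9.96, where the group ran from 9.77 to 10.18. For the list of adrenal or intestinal markers NASH model 2 and 7 were at 12.45 and 12.48, where the group ran from 11.49 to 12.48. This sum follows mainly 1 gene, Apoa4, which ran from 11.26 to 12.29 in the model. Of the 8 markers, 2 lay below the background level in all 16 samples. Whether such tissue was present in these samples was not tested. The part of these genes and marker levels in the low synthesis level was not tested. Leaving out NASH model 2 and 7, the samples with the lowest synthesis level, raises the enzyme means of the model and narrows their spread by construction, and no controls were left out to match. The values without them are therefore a description and no test of the enzymes. The median SD of the enzymes in the model was then 0.20, against 0.22 over all genes, and the differences were 0.98 for Hmgcs1, 0.61 for Idi1 and 0.63 for Msmo1. The fit without them put 7 members past the threshold as higher, these 3 enzymes among them, against 11.2% of all genes.

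Values of 2 circadian clock genes, picked after they were seen, are given beside the synthesis level of the controls, with no test. Dbp, a clock output gene, was at 9.06, 9.57 and 10.19 in controls 3, 4 and 5, and between 7.70 and 8.82 in the other 5. Arntl, a clock activator, was at 5.67, 4.56 and 3.94 in controls 3, 4 and 5, at 5.06 in control 1 and between 6.58 and 6.64 in controls 6, 7, 9 and 10. Dbp thus separated the controls with high synthesis from the others, while Arntl did not, since control 1 lay below control 3. The clock score over the list did not separate them either, with -0.36 in control 3 against -0.05 and 0.03 in controls 1 and 10. All 8 NASH model samples had Arntl between 3.24 and 4.37 and Dbp between 9.86 and 10.35. Of 17 measured clock genes, 5 were higher and 6 lower in the model. When each sample's clock score, centred within its group, was added to the fit, every member kept its call, and Insig2 differed by -1.58 ± 0.18. The score cannot take up a difference in the clock between the groups, so for the members such a difference and the model cannot be told apart. Insig2 was lowest among controls in samples 4 and 5, at 7.17 and 7.59, the same samples that were highest in Dbp.

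Hmgcs1 was used to describe how closely the enzymes moved together. Over the 8 controls, 15 of the 16 other enzymes correlated with it above 0, and 11 of them above 0.7, with a median Pearson r of 0.76. The share of all genes that correlate with Hmgcs1 in this way was not taken. The counts therefore do not show a trait particular to the enzymes. Fdft1 had the highest r, 0.96 (exact permutation p = 8.7e-04, adjusted p = 0.013 over 42 relations), with Spearman's rho = 0.93 (exact permutation p = 0.0022, adjusted p = 0.031). Its r was 0.91 without controls 3 and 5, the samples farthest from the median. Ebp had the highest rho, 0.98 (exact permutation p = 4.0e-04, adjusted p = 0.017), with r = 0.91 (exact permutation p = 9.9e-05, adjusted p = 0.0042) and 0.80 without controls 3 and 5. For 5 of the 16 enzymes r passed at an adjusted p under 0.05, and without controls 3 and 5 all 16 lay above 0 with a median of 0.73. Insig2 ran the other way, with r = -0.70 (exact permutation p = 0.056, adjusted p = 0.14) and rho = -0.64 (exact permutation p = 0.096, adjusted p = 0.20), and did not pass. In the NASH model the relation was taken over 6 samples, without 2 and 7, which had the lowest synthesis level. Hmgcs1 is part of that level, so this choice is not independent of the relation, which was not taken over all 8. Over the 6 samples the median r was 0.68, 7 of 16 enzymes lay above 0.7 and 0 passed after adjustment over the same 42 relations. At an unadjusted exact permutation p under 0.05, 2 of 16 did. Without NASH model 1b and 4 the median r was -0.28, so the relation among these 6 rested on 1b and 4.

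**Figure D4:**
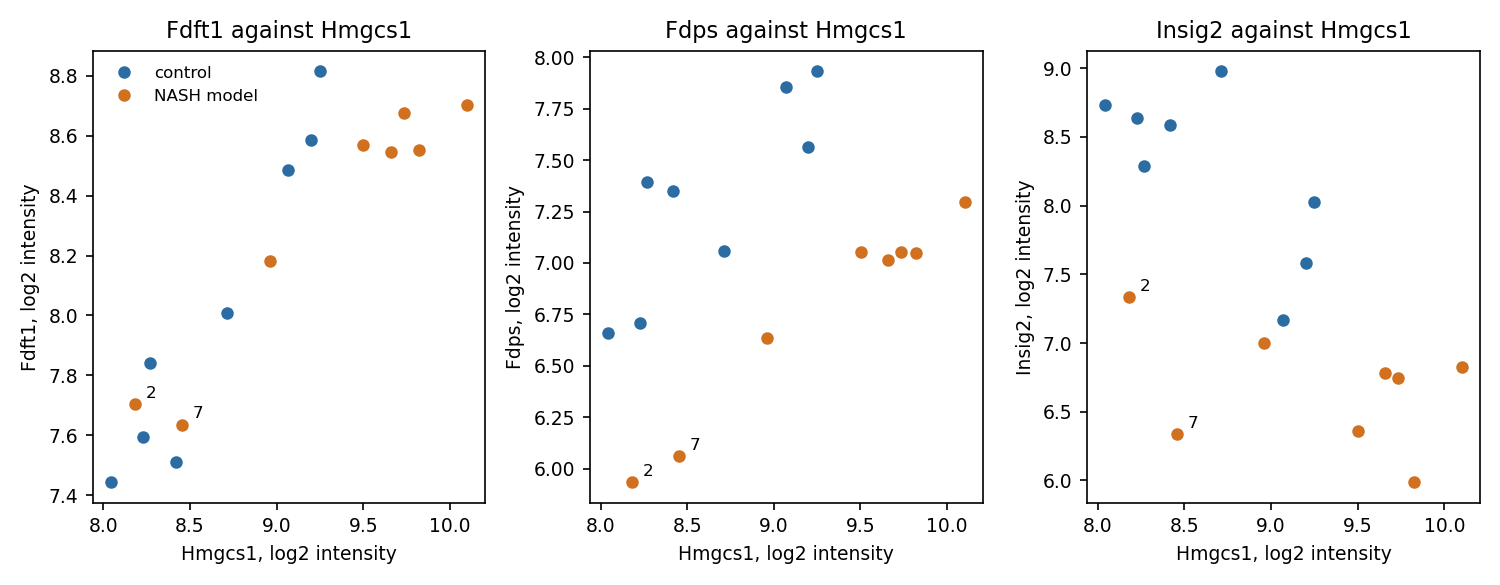
Log2 intensity of Fdft1, Fdps and Insig2 (vertical axes) against that of Hmgcs1 (horizontal axis) in each sample, controls and NASH model; the numbers mark NASH model 2 and 7. Fdft1 rises with Hmgcs1 in the controls. NASH model 1a and 1b, the highest samples in Hmgcs1, lie at 8.55 and 8.70 in Fdft1, below control 3 at 8.82. Fdps lies lower relative to Hmgcs1 in every NASH model sample than in any control, and Insig2 lies at or below 7.33 in every NASH model sample.

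The levels of the enzymes relative to each other are given as a description. For each enzyme the mean of the 16 others in the same sample was subtracted, a measure added after the values were seen. The group mean of Hmgcs1 differed most upwards, from 1.55 ± 0.21 to 2.25 ± 0.39 (SD, n = 8), and that of Pmvk most downwards, from -0.52 ± 0.33 to -1.11 ± 0.11. The mean of Fdps was 0.13 ± 0.23 in the controls and -0.45 ± 0.17 in the model, and that of Ebp 1.49 ± 0.28 and 1.07 ± 0.39. The groups overlapped for all 17 enzymes on this measure, and over all genes they did not overlap for 3.45%. The differences are given without a test. Set directly against each other, Fdps minus Hmgcs1 ran from -1.66 to -0.87 in the controls and from -2.81 to -2.25 in the model, with no overlap. Pmvk minus Hmgcs1 did not overlap either, with -2.42 to -1.50 in the controls and -3.84 to -2.58 in the model. Both measures share Hmgcs1. NASH model 2 and 7, the samples with low synthesis, lay at -2.25 and -2.39 in Fdps minus Hmgcs1. Without them the model ran from -2.81 to -2.32, so NASH model 2 lay above that range and NASH model 7 within it. In Pmvk minus Hmgcs1 they lay at -2.58 and -2.66, both above the rest of the model, which ran from -3.84 to -2.82. These gene pairs were picked for their differences, and no test is given.

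**Figure D5:**
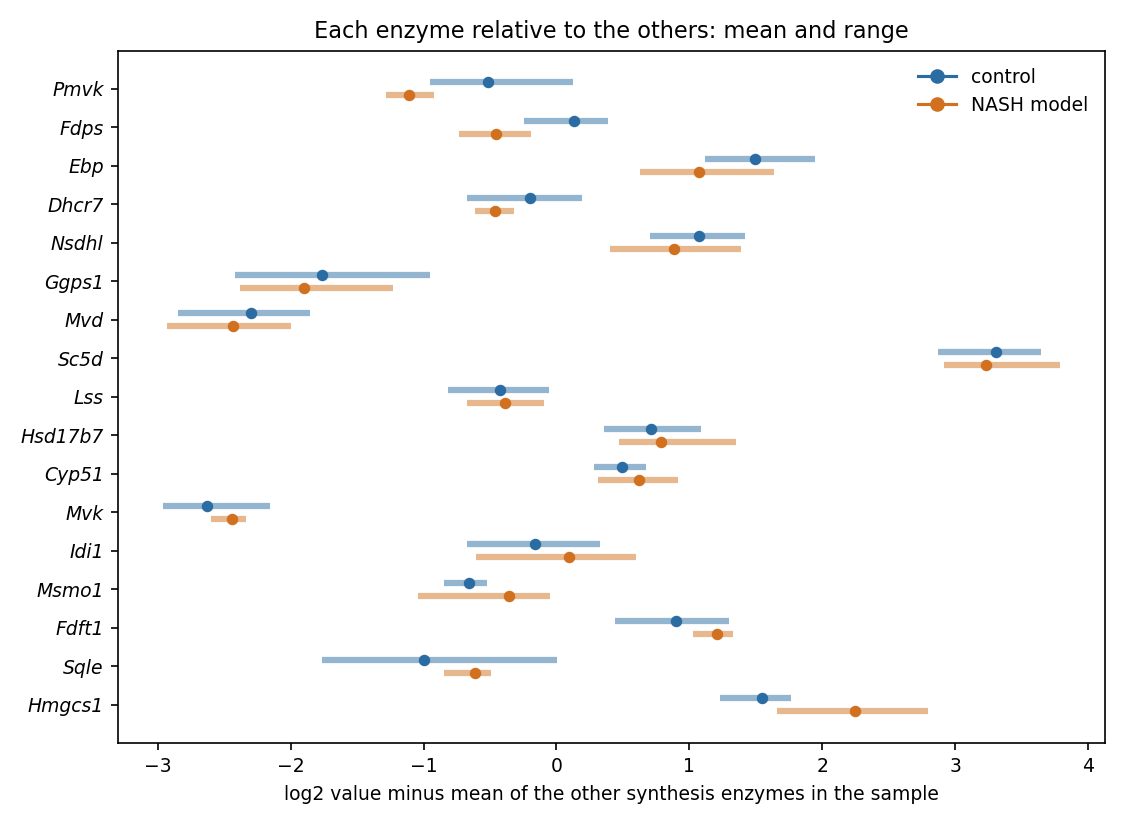
Log2 value of each synthesis enzyme minus the mean of the 16 other enzymes of the same sample (horizontal axis), as mean (point) and range (bar) over 8 controls and 8 NASH model samples. Enzymes are ordered by the difference of the group means, from Pmvk and Fdps, with the lowest differences, to Hmgcs1, with the highest; the ranges overlap for all 17.

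RefSeq promoter windows of GRCm38.p6 were matched for 26 of the 32 members, and for 14 of the 17 synthesis enzymes. All 14 of these enzymes held a CCAAT on either strand, as did 8 of 12 other members and 41.1% of all 27025 genes with a window. The TCACNCCAC motif was in 1 of the 14 enzymes, Hmgcs1, and in 1.44% of all genes. The E-box CACGTG was in 3 of the 14, in 4 of the 12 other members and in 8.09% of all genes. The CCAAT and TCACNCCAC matches do not overlap each other in the windows shown, and a match is a description of the sequence only. Windows are shown for Hmgcs1, the enzyme with the largest positive difference, for Msmo1 and Cyp51, which were among the 11 enzymes that correlated with it above 0.7 in the controls, and for Ggps1, which did not follow the others (r = -0.16 with Hmgcs1 in the 8 controls, exact permutation p = 0.69, adjusted p = 0.72; rho = -0.12, exact permutation p = 0.79, adjusted p = 0.86; r = 0.10 without controls 3 and 5). They lie at chr13:119690101-119690400 on the plus strand for Hmgcs1, and on the minus strand at chr8:64733529-64733828 for Msmo1, chr5:4104648-4104947 for Cyp51 and chr13:14063439-14063738 for Ggps1. Hmgcs1 holds 4 CCAAT matches and the TCACNCCAC, Msmo1 and Ggps1 hold 3 CCAAT matches each, and Cyp51 holds 1.
Hmgcs1: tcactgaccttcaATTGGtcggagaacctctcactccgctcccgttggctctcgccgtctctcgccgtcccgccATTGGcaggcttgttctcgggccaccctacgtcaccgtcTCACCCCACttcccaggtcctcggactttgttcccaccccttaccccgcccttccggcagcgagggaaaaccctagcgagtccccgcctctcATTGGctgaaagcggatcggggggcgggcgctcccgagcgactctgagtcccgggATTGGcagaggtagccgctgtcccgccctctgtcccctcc
Msmo1: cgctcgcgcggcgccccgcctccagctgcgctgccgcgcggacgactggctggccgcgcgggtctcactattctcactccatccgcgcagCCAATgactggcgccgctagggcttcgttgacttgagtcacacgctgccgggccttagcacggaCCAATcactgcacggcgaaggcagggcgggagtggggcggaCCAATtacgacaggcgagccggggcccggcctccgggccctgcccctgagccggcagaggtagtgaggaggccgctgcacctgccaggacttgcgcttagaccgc
Cyp51: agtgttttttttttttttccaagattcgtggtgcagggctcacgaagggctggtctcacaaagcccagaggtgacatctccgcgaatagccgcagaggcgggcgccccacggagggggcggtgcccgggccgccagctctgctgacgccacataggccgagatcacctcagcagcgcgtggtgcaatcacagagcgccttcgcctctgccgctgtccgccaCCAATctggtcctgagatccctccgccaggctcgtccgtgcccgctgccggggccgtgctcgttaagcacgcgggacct
Ggps1: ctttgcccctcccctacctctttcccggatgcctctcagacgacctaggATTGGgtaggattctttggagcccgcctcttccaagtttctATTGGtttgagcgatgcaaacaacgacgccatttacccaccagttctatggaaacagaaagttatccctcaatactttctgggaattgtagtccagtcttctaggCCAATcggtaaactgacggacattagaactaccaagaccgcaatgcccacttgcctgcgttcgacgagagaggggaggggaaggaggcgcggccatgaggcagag

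Genes of lipoprotein uptake showed 1 fall. Scarb1, the receptor that takes cholesteryl ester from HDL, ran from 8.92 to 9.16 (median 9.02) in the controls and from 8.33 to 8.91 (median 8.65) in the model, with no overlap. It fell by 0.38 ± 0.09, or 1.30-fold (adjusted p = 0.0028). Lrp1, a large endocytic receptor for remnant lipoproteins, ran from 9.80 to 10.27 (median 9.98) in the controls and from 9.57 to 9.99 (median 9.78) in the model. Its difference of -0.23 ± 0.09 was not called (adjusted p = 0.057). Leaving out control 1 brought the adjusted p to 0.038 and leaving out NASH model 1a to 0.034. Without control 4, or without NASH model 2, the adjusted p was 0.11. Mylip, a ubiquitin ligase that sends lipoprotein receptors to degradation, differed by 0.22 ± 0.11 and was not called (adjusted p = 0.16).

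In the efflux group all 5 genes were called, 4 lower and 1 higher, where 26.6% of all genes were called, 13.4% lower and 13.2% higher. Lcat, the secreted enzyme that esterifies cholesterol on HDL, ran from 10.49 to 10.69 (median 10.57) in the controls and from 10.08 to 10.37 (median 10.23) in the model, with no overlap. It fell by 0.34 ± 0.07 (adjusted p = 0.0013). Abca1, which loads cholesterol onto apolipoprotein A-I, fell by 0.28 ± 0.09 (adjusted p = 0.032). Its controls ran from 8.27 to 8.66 (median 8.59) and its NASH model samples from 7.98 to 8.44 (median 8.30), so the groups overlapped. The call was lost when any of controls 1, 4, 7 and 9 or NASH model 1a, 4 and 6 was left out, with adjusted p from 0.054 to 0.066.

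Abcg5 and Abcg8 encode the subunits of the transporter that secretes sterol into bile. Abcg5 ran from 8.25 to 9.11 (median 8.64) in the controls and from 7.64 to 8.53 (median 8.24) in the model, and fell by 0.47 ± 0.14 (adjusted p = 0.015). Abcg8 ran from 7.55 to 8.42 (median 8.03) in the controls and from 6.997 to 7.81 (median 7.72) in the model, and fell by 0.40 ± 0.15 (adjusted p = 0.049). NASH model 2 and 7 were the lowest samples of Abcg8, at 7.10 and 6.997, and NASH model 7 the lowest of Abcg5, at 7.64. Without these samples the differences were -0.38 ± 0.14 for Abcg5 (adjusted p = 0.057) and -0.23 ± 0.13 for Abcg8 (adjusted p = 0.22), and neither was called. The call of Abcg8 was also lost when any of controls 1, 3, 4, 5 and 10 or NASH model 1a, 2, 3, 4 and 7 was left out. The genes lie head to head, and their RefSeq promoter windows share 209 bases. The Abcg8 window, chr17:84682871-84683170 on the plus strand of GRCm38.p6, is shown because it holds those shared bases. It holds 2 CCAAT matches, in capitals.
Abcg8: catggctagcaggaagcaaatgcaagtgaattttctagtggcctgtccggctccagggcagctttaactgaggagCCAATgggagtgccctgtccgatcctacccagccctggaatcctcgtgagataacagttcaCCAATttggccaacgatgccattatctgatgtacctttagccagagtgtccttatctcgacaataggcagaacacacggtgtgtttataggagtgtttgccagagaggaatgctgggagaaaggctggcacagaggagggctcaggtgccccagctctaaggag

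Abcg1, which moves cholesterol from cells to mature HDL and is prominent in macrophages, ran against the other exporters. It ran from 3.69 to 5.16 (median 4.68) in the controls and from 5.21 to 6.06 (median 5.66) in the model, with no overlap. It rose by 1.04 ± 0.18, or 2.06-fold (adjusted p = 2.4e-04). Control 10 had the lowest value and NASH model 2 the highest.

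In the storage and transfer group, 2 of 3 measured genes were higher. Nceh1, a hydrolase of neutral cholesteryl esters, ran from 7.26 to 8.00 (median 7.56) in the controls and from 8.42 to 8.91 (median 8.60) in the model, with no overlap. It rose by 1.03 ± 0.11, or 2.04-fold (adjusted p = 4.9e-07). Ch25h, which makes the oxysterol 25-hydroxycholesterol, ran from 2.23 to 2.97 (median 2.56) in the controls and from 2.58 to 3.45 (median 3.02) in the model, and rose by 0.50 ± 0.14 (adjusted p = 0.0092). The background level of 2.89 lay above 7 of 8 controls and 2 of 8 NASH model samples for this gene. Its difference is thus measured close to background, where array signals compress differences. Stard4, a sterol transfer protein that SREBP2 induces, was not called (-0.30 ± 0.19, adjusted p = 0.28).

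Markers of other cells moved in the same biopsies as Abcg1, Nceh1 and Ch25h. Among macrophage markers (recruited and lipid-associated cells), 13 of 14 measured were higher and 1 was not called. Mmp12 ran from 2.47 to 3.97 in the controls and from 11.04 to 11.69 in the model, and Gpnmb from 2.05 to 3.93 and from 10.22 to 10.71. For each of them 4 of 8 controls lay below the background level, so the sizes of their differences are not given. The summed level of the list ran from 8.77 to 9.56 in the controls and from 12.59 to 13.20 in the model. Of 11 Kupffer cell markers, 1 was higher and 6 lower, and the summed level ran from 11.01 to 11.87 and from 10.19 to 11.07. Of 13 hepatocyte markers, 5 were lower and 8 not called, with summed levels of 15.34 to 15.38 and 15.29 to 15.39. This sum follows the brightest markers of the list, which were not called. F7 (-0.84 ± 0.11) and Foxa2 (-0.76 ± 0.14) differed most, and their groups did not overlap. Stellate cell markers were higher in 10 of 13 and cholangiocyte markers in 5 of 8, and the others of these lists were not called. Of 12 endothelial markers 2 were higher and 6 lower, of 9 lymphocyte markers 4 were higher and 1 lower, and of 7 neutrophil markers 2 were higher. Of 8 markers of adrenal or intestinal tissue 2 were higher and 1 lower. No marker of the macrophage, Kupffer cell or hepatocyte lists lay below the background level in all 16 samples. In the neutrophil list 1 marker did, and in the adrenal or intestinal list 2 did. The part of these cells in the changes of the cholesterol genes was not tested. In bulk liver a change in the share of cells and a change in RNA per cell cannot be told apart.

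Other genes of cholesterol handling went both ways, with 6 of 25 measured genes higher and 5 lower, against 13.2% and 13.4% of all genes. Their median difference was 0.01. The largest were those of Cd36, a scavenger receptor for oxidised lipoprotein and fatty acids (3.28 ± 0.13), and Cyp39a1, an oxysterol hydroxylase (1.42 ± 0.21). Npc2, which carries cholesterol out of lysosomes (1.19 ± 0.09), and the scavenger receptor Msr1 (1.01 ± 0.13) followed. Lipa, the lysosomal cholesteryl ester hydrolase (0.60 ± 0.10), and Gramd1a, a sterol transfer protein (0.46 ± 0.14), were the others called higher. The 5 called lower were the transporter Abca2 (-0.99 ± 0.16), the bile acid synthesis enzyme Cyp27a1 (-0.79 ± 0.18), the sterol transfer protein Gramd1c (-0.50 ± 0.12), the liver X receptor Nr1h3 (-0.43 ± 0.11) and its partner Rxra (-0.37 ± 0.09). Lipa, Gramd1a and the 5 lower genes were added after their values were seen.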

How the data were processed

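The authors deposited log2 intensities of 29129 probe sets from 16 one-colour arrays labelled by an Affymetrix protocol, per the labels. The method behind these log2 values and the genome build of the array are not given in the sources used here. A single gene symbol was annotated for 19572 probe sets and none for 9557. Column medians ran from 3.52 to 3.66, so the values were quantile normalized, which changed none by more than 0.16. For each gene the probe set with the highest mean was used. Groups were compared with limma 3.58.1 in R 4.3.3 (lmFit, eBayes, two-sided, group as the only term), and the fit was tested on simulated data. Dim genes were not filtered. The number of arrays limits the precision. All 36 members are named in the text. Of each marker list up to 2 genes are named, and of the other cholesterol genes up to 4, besides those stated as added after their values were seen. The members and gene lists were chosen with earlier results of these data known. Summed levels are log2 of the sum of linear intensities. NASH model 1a and 1b differed as much as other pairs did (SD of gene-wise differences 0.387, against 0.340 to 0.466), and were kept as separate samples. Alternatives were other normalizations, a filter, probe set averaging, other variance models, left-out samples, a replicate block, a clock score and an exact permutation test.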

Additional observations from a re-analysis of the deposited data

Results flagged for a closer look

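Hsd17b7, a sterol ring enzyme, was at 7.11 in NASH model 7, while the rest of that group ran from 7.89 to 8.19. Insig1 was at 8.06 in the same sample, where the rest ran from 8.55 to 8.91. Both values lay apart from the rest of their group by Dixon's criterion for 8 samples (the gap to the nearest sample over the range, at the 95% level), which chance passes in about 1 of 20 groups. In all, 64 sets of 8 values were examined and 2 passed.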

How the results depend on the processing

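Leaving out 1 sample at a time gave 4 to 5 members higher and 7 to 10 lower, and among the synthesis enzymes 0 to 1 higher and 2 to 3 lower. The comparison that left out NASH model 2 and 7 called 7 members higher, 3 of them synthesis enzymes, but these samples had the lowest synthesis level, so this is no test of the enzymes. Centring on spike-in probes left 3 members lower and no synthesis enzyme among them (0), and called 1 synthesis enzyme, Hmgcs1, higher; array weights also called 1. Spike-in centring ended the calls of Pmvk, Ebp, Abca1, Abcg5, Abcg8 and Lcat. Insig2, Scap, Abcg1 and Nceh1 kept their calls in all 29 alternatives. Differences near 0 changed sign in members that were not called. With spike-in centring these were Ggps1 (0.11), Mvd (0.15) and Sc5d (0.0871), and with array medians Hsd17b7 (-0.0273) and Lss (-0.0359). The others were Mvd with values as deposited (0.0113), Sc5d with cyclic loess (0.0030), Nsdhl without NASH model 2 and 7 (0.0840), and Lss when 1 of 4 samples was left out (from -0.0406 to 0.134 over all 16 such fits). Same-numbered samples did not deviate together over all genes (correlations from -0.024 to 0.059). The labels do not say what the number means, and these correlations cannot tell whether such samples share an origin. With the replicate number as a block, 3 members were higher and 8 lower, 3 of them synthesis enzymes: Fdps was called (-0.61), and Scarb1 (-0.33), Abca1 (-0.32) and Ch25h (0.48) were not. Ch25h was not tested without the dimmest 40% of genes. The cause was not tested for any of these shifts. Among the members, Ch25h alone had samples below the background level.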
